A study of Mus musculus with 172 samples.

Results

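The mRNAs of 10 neuropeptide precursors were followed in the cerebral cortex of mice after sleep deprivation (SD). These genes, *Sst*, *Npy*, *Vip*, *Cck*, *Crh*, *Penk*, *Pdyn*, *Tac1*, *Cort* and *Adcyap1*, were taken by name, and all 10 were among the 14896 genes listed in both cortex tables. None of them was listed in the liver tables of the same mice. Cortex RNA came from male mice of 11 to 14 weeks, with equal amounts from 3 mice of a line and condition joined into 1 pool and 1 library, except in BXD79, BXD85 and BXD101, where the number of mice was lower. Mice either lost sleep by gentle handling for 6 h from light onset or were left undisturbed (Ctr), and both groups were killed 6 h after light onset. Each condition held 39 pools, from 33 BXD/RwwJ recombinant inbred lines, from the parental strains C57BL/6J (B6) and DBA/2J (D2), and from 1 pool of each reciprocal F1 hybrid. BXD lines are inbred mosaics of the B6 and D2 genomes. Each parental strain gave 2 pools per condition, from the start and the end of the collection. A pool is thus the replicate throughout, and a line has 1 pool per condition, so that differences between lines and differences between single pools cannot be told apart outside the parental strains. Libraries held between 18995492 and 28998853 reads counted on genes in Ctr (median 22170272) and between 19025159 and 28685060 in SD (median 22713295).

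Neuropeptides are cut from larger precursor proteins, packed into dense-core vesicles and released during strong or repeated firing, and they act on G protein-coupled receptors. In the cortex most are made by GABAergic interneurons, several classes of which are named after them. Somatostatin (*Sst*), cortistatin (*Cort*) and neuropeptide Y (*Npy*) mark largely dendrite-targeting cells, vasoactive intestinal peptide (*Vip*) marks cells that inhibit other interneurons, and *Crh* (corticotropin-releasing hormone) and *Tac1* (substance P and neurokinin A) are made by subsets of interneurons. *Cck* (cholecystokinin) is made by basket cells and also by many pyramidal cells, *Adcyap1* (the peptide PACAP) mainly by pyramidal cells, and the opioid precursors *Penk* (enkephalins) and *Pdyn* (dynorphins) by scattered cortical neurons and, with *Tac1*, in large amounts by the projection neurons of the striatum beneath the cortex. Several of these genes are textbook targets of the cAMP-responsive factor CREB, which binds an element called the cAMP response element (CRE).

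Promoter sequence was therefore set beside the responses described further on. RefSeq windows on build GRCm38.p6, from 250 bases before to 50 bases after the annotated start, matched 8 of the 10 genes by symbol, and *Penk* and *Crh* had no entry. Of all 32851 windows in that table, 1.79% held the full palindrome of the CRE, TGACGTCA, on either strand. A partial CRE, TGACGTC, which every full CRE also contains, was in 3.21% of the windows. A variant known as a CRE-like element, TGCGTCA, was in 2.12%. The partial CRE was found in 3 of the genes, *Sst* (as the full CRE), *Vip* and *Adcyap1*, and the variant in 3 others, *Cck*, *Cort* and *Tac1*. The windows of *Npy* and *Pdyn* held none of these. The matched letters are given in capitals, written 5′ to 3′ on the strand of the gene, with up to 30 bases on either side before the start.
Sst: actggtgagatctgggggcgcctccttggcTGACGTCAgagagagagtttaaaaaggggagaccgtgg
Vip: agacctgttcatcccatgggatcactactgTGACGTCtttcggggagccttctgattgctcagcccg
Adcyap1: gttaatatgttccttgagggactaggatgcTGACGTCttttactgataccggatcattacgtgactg
Cck: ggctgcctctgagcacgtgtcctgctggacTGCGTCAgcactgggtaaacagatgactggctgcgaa
Cort: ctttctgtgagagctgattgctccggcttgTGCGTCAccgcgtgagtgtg
Tac1: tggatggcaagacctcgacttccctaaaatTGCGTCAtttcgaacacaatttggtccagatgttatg
The stretches lie at chr16:23890855-23890922 (minus strand) for *Sst*, chr10:5639109-5639175 (plus) for *Vip*, chr17:93198896-93198962 (plus) for *Adcyap1*, chr9:121495707-121495773 (minus) for *Cck*, chr4:149126764-149126813 (minus) for *Cort* and chr6:7554832-7554898 (plus) for *Tac1*. All 6 are upstream of the annotated start, where the first matched base is 48 bases before it in *Sst*, 79 in *Vip*, 91 in *Adcyap1*, 49 in *Cck*, 20 in *Cort* and 199 in *Tac1*. A further window of *Adcyap1*, with another annotated start, holds the same match 242 bases before that start. A match is a run of letters and not a measured binding site.

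The reads themselves had been counted by the authors on mm9. On that build GENCODE places *Sst* at chr16:23889667-23890930 (minus), *Npy* at chr6:49772709-49779506 (plus), *Vip* at chr10:4698927-4707323 (minus, the reverse of its strand in GRCm38.p6), *Cck* at chr9:121398943-121404807 (minus) and *Crh* at chr3:19593401-19595396 (minus). *Penk* lies at chr4:4060678-4065966 (minus), *Pdyn* at chr2:129512301-129525580 (minus), *Tac1* at chr6:7505071-7512973 (plus), *Cort* at chr4:148499143-148500872 (minus) and *Adcyap1* at chr17:93598762-93604825 (plus). A long noncoding gene overlaps *Penk* on the other strand, and the counting used strand.

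Levels of the precursors spanned a wide range. Per kilobase of annotated exon, as CPM (reads relative to the library total, scaled by TMM) averaged on a log scale over the 39 Ctr pools, *Cck* and *Sst* stood highest at 229 and 227 CPM per kb, and *Cck* exceeded *Sst* in 20 of 39 pools, so this pair had no order. *Npy* followed at 108, below *Sst* in every pool, then *Vip* at 34.5 and *Penk* at 24.7, with *Vip* above *Penk* in 35 pools. *Pdyn*, *Tac1* and *Adcyap1* were alike at 10.1, 10.1 and 9.63 CPM per kb, and their order changed from pool to pool (*Pdyn* exceeded *Tac1* in 16 pools, and *Tac1* exceeded *Adcyap1* in 21). *Cort* (4.16) and *Crh* (3.84) were lowest, with *Cort* above *Crh* in 26 pools. The lowest Ctr pool held 24 reads of *Cort* and 70 reads of *Crh*, against 2419 reads of *Sst* and 3440 of *Cck*, so single values of the scarce members are less certain. All other levels below are log2 CPM, which is not corrected for gene length and is compared only within a gene.

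The question of the main comparison is which of these mRNAs differ after 6 h of lost sleep. *Crh*, *Adcyap1*, *Vip*, *Tac1*, *Cck* and *Pdyn* rose, by 1.12-fold (*Pdyn*) to 2.02-fold (*Crh*), and *Cort*, *Penk*, *Sst* and *Npy* did not pass the test. All 10 differences were above 0, and none was called lower, nor was any lower at an unadjusted p under 0.05. Across the 14896 genes of the fit, limma called 68.4% at an adjusted p under 0.05, 33.0% higher and 35.4% lower in SD, and the median log2 difference of all genes was -0.0097, against 0.19 for the 10 precursors. The 6 of 10 precursors called are a share near that of all genes in either direction. Because the 10 were chosen with earlier results of these data known, their contrast with all genes is a description only. In whole cortex, more or fewer cells of a type and more or less RNA per cell cannot be told apart.

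*Crh*, the precursor best known as the hypothalamic trigger of the stress axis and in cortex a product of interneurons, had the largest response. Ctr pools ran from 1.75 to 2.97 log2 CPM (median 2.37) and SD pools from 2.94 to 3.82 (median 3.37). The 2 ranges touched only at their ends, and 38 of 39 SD pools lay above every Ctr pool. The log2 difference was 1.01 ± 0.060 (SE, adjusted p = 1.42e-26), positive in 39 of 39 pools, and was the 104th largest rise of the 14896 genes. Single pools rose by between 0.42 (BXD89) and 1.85 (BXD71).

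*Adcyap1*, which encodes PACAP, a potent stimulator of adenylate cyclase, was next. Its levels went from 3.95 to 4.81 in Ctr (median 4.33) and from 4.33 to 5.30 in SD (median 4.72), so the groups overlapped, and 16 SD pools exceeded every Ctr pool. The log2 difference of 0.43 ± 0.047 (adjusted p = 3.61e-13) was positive in 38 of 39 pools, with BXD89 the exception at -0.053.

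*Vip* had the most even response. Ctr pools held 5.46 to 6.05 log2 CPM (median 5.71) and SD pools 5.73 to 6.37 (median 6.05), and 20 SD pools stood above all Ctr pools. The log2 difference was 0.33 ± 0.033 (adjusted p = 2.66e-15), positive in 38 of 39 pools, again with BXD89 the exception (-0.077). The standard deviation of the change between pools was 0.13 on the log2 scale, against 0.35 for *Crh* and 0.25 for *Adcyap1*.

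*Cck* and *Pdyn* rose by less. *Cck* went from a median of 7.57 (7.31 to 7.93) to 7.79 (7.37 to 8.07), a log2 difference of 0.20 ± 0.037 (adjusted p = 1.12e-06) that was positive in 36 of 39 pools. The largest departure was BXD90, where *Cck* fell by 0.53. *Pdyn*, the precursor of the kappa opioid peptides, went from a median of 4.85 (4.56 to 5.41) to 5.03 (4.73 to 5.35), a log2 difference of 0.17 ± 0.036 (adjusted p = 2.69e-05), positive in 36 pools. For both genes the conditions overlapped widely.

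*Tac1*, the tachykinin precursor, rose on average but irregularly. Ctr pools ran from 2.92 to 4.09 (median 3.39) and SD pools from 3.11 to 4.64 (median 3.67). The log2 difference was 0.32 ± 0.075 (adjusted p = 1.11e-04), positive in 33 of 39 pools, and ranged from -0.45 in BXD44 to 1.54 in BXD55. The median change of the pools, 0.22, was smaller than the mean because a few pools rose by more than 1 log2 unit.

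**Figure D1:**
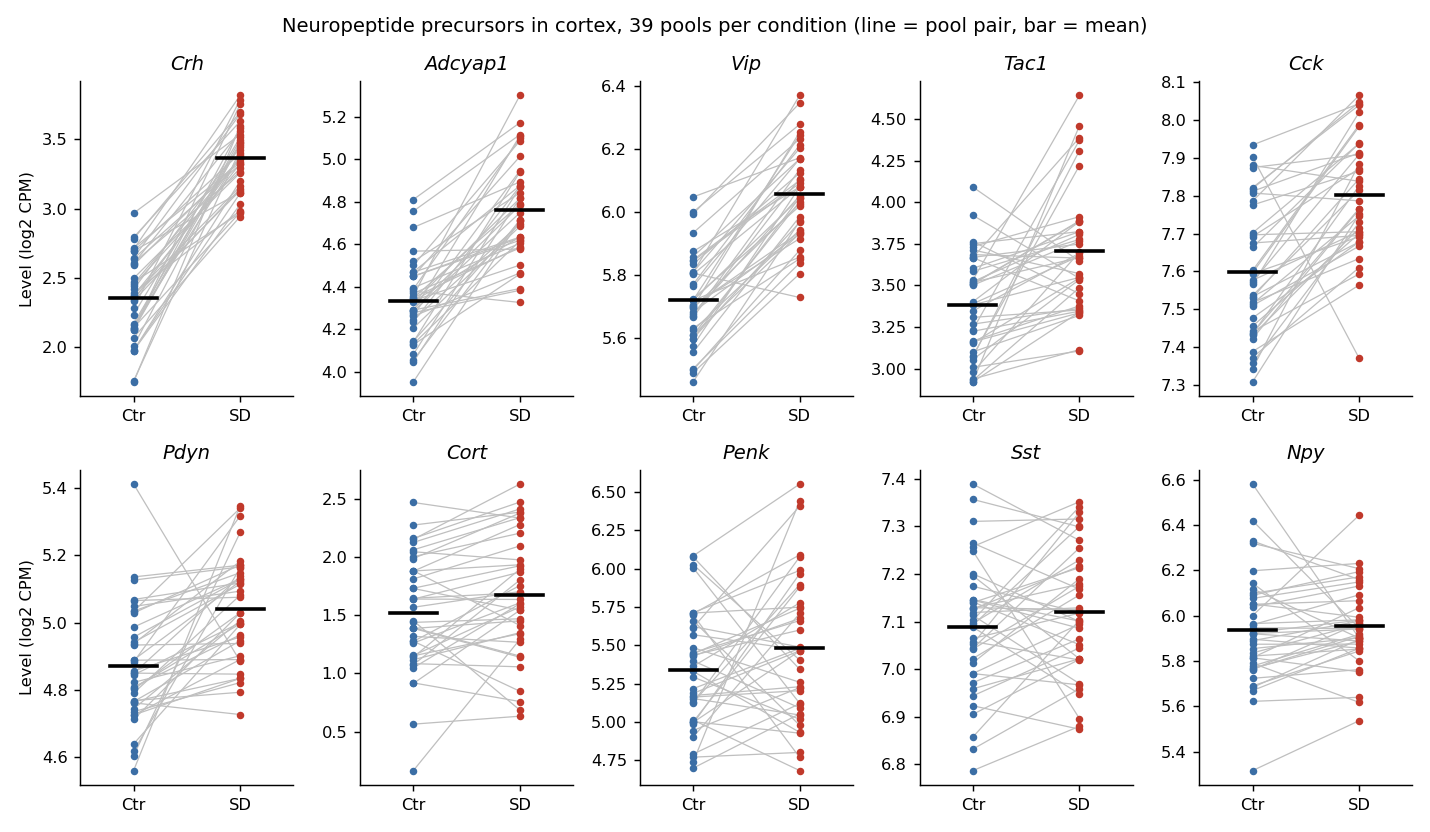
Levels of the 10 neuropeptide precursors (log2 CPM, vertical axis, scaled per gene) in Ctr (blue) and SD (red) cortex pools, 39 per condition, with grey lines joining the pools of the same line and black bars at the means. Nearly every *Crh*, *Adcyap1* and *Vip* line climbs (39, 38 and 38 of 39 pools), whereas *Penk* lines cross (25 of 39 up).

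The remaining members did not pass. *Sst* and *Npy*, abundant interneuron products, were nearly level, at 0.033 ± 0.030 (adjusted p = 0.331) and 0.016 ± 0.046 (adjusted p = 0.770), with 95% intervals of -0.027 to 0.092 and -0.076 to 0.11 on the log2 scale. *Sst* went from 6.79 to 7.39 in Ctr (median 7.10) and from 6.87 to 7.35 in SD (median 7.12), and *Npy* from 5.32 to 6.58 (median 5.92) and from 5.54 to 6.44 (median 5.94). Quantile normalization turned both differences slightly negative, to -0.0050 and -0.010. *Cort*, a close relative of *Sst*, ran from 0.17 to 2.47 in Ctr (median 1.45) and from 0.63 to 2.63 in SD (median 1.64), and differed by 0.16 ± 0.11 (adjusted p = 0.204), positive in 27 of 39 pools. In the fit that blocks on the line, which takes out the large differences between lines in *Cort*, the same difference passed (adjusted p = 0.00943). *Penk* differed by 0.15 ± 0.095 (adjusted p = 0.168), positive in 25 pools, and its pools moved by anything from -0.93 (BXD43) to 1.70 (BXD55). Of 500 genes of like level, 99.8% had a smaller standard deviation of the change than *Penk* (0.55), and 99.2% a smaller one than *Tac1* (0.44).

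**Figure D2:**
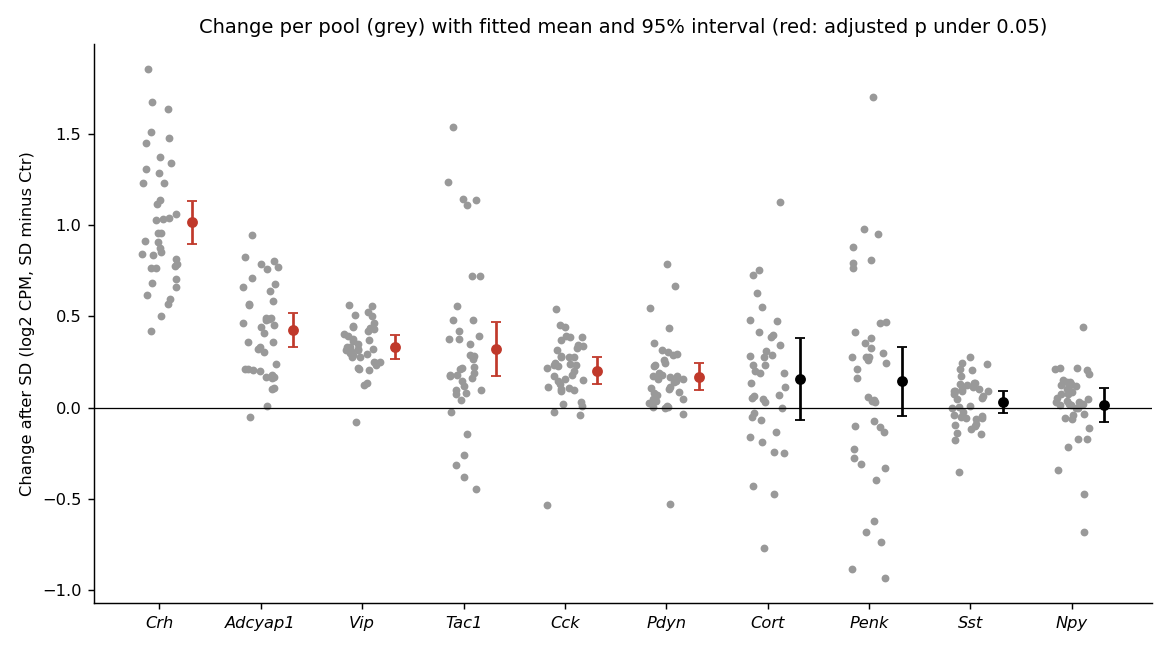
Change after SD of each pool (grey points, log2 CPM of SD minus Ctr) for the 10 precursors, with the fitted mean and its 95% interval beside them. Mean and interval are in red where the adjusted p is under 0.05 and black otherwise. They come from the fit without a block, which does not pair the pools of a line as the grey points do. The *Vip* changes are packed within -0.077 to 0.56, whereas those of *Penk* spread from -0.93 to 1.70 on both sides of 0.

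A further 4 BXD/TyJ lines, an older BXD set that was not in the fit, gave 1 pair of pools each. The paper states that the older and newer sets came from different DBA/2 sub-strains. Age and number of mice are not given for these 4 lines. *Crh*, *Adcyap1* and *Vip* were higher after SD in 4 of 4 of these lines, by mean log2 changes of 0.79 (0.55 to 1.18), 0.30 (0.083 to 0.45) and 0.37 (0.22 to 0.49). *Cck* and *Pdyn* were higher in 3 of 4 (means 0.11 and 0.062) and *Tac1* in 2 of 4 (mean -0.11, from -0.72 to 0.41). *Sst* was lower in all 4 lines, with a mean of -0.17 (-0.32 to -0.068). The 2 lines of the set named 29 and 29t share a number in the labels, and no test was made on 4 pairs.

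Set against the promoter letters shown above, the genes with the partial or full CRE were *Vip* and *Adcyap1*, which rose, and *Sst*, which holds the full CRE and was level. *Cck* and *Tac1*, with the variant, rose and *Cort*, with the same letters, passed only with the block. *Pdyn* rose with none of these letters in its window. Nothing about CREB was measured here.

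Peptide receptors were mixed. Of the 20 on a list of receptors for these peptides, 18 were listed (not *Sstr5* or *Cckar*), 4 rose, 6 fell and 8 did not pass, with a median log2 difference of -0.045 against -0.0097 for all genes. Of all genes tested 33.0% rose and 35.4% fell. Blocking on the line raised the count of receptors that rose from 4 to 7, and it also raised the count of all genes that rose, from 4913 to 5458. *Oprd1*, the delta opioid receptor that binds enkephalins, rose from 4.82 to 5.20 log2 CPM (difference 0.38 ± 0.037, adjusted p = 2.31e-15, up in 37 of 39 pools). *Sstr4*, a somatostatin and cortistatin receptor, rose from 3.33 to 3.70 (0.37 ± 0.056, adjusted p = 1.16e-08, 38 pools). The other listed somatostatin receptors were mixed. *Sstr1*, at 5.04 log2 CPM in Ctr, fell by 0.295 (adjusted p = 3.88e-15, down in 38 pools), *Sstr2* rose by 0.26 (adjusted p = 1.93e-08), and *Sstr3* did not pass (adjusted p = 0.541). *Oprk1*, the kappa receptor of the dynorphins, fell by 0.56 ± 0.086 from 3.17 to 2.61 (adjusted p = 1.83e-08, down in 35 pools), while its ligand precursor *Pdyn* rose. *Vipr2*, a receptor for VIP and PACAP that is scarce in these pools (-0.38 log2 CPM in Ctr), fell by 0.47 ± 0.16 (adjusted p = 0.00559, down in 29 pools). Its log2 difference ran from -0.52 to -0.17 over 13 alternatives, smallest on the log2(CPM + 1) scale, and passed in each.

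The enzymes that cut and finish peptide precursors also moved in both directions. All 10 on the list were listed, of which 4 rose, 3 fell and 3 did not pass (median 0.0020). For comparison, 33.0% of all genes tested rose and 35.4% fell. *Pcsk1*, prohormone convertase 1, which makes the first cuts in many precursors, rose from 4.79 to 5.76 log2 CPM, by 0.97 ± 0.064 (adjusted p = 8.16e-24, 39 of 39 pools). *Furin*, a convertase of the trans-Golgi, rose by 0.34 ± 0.019 (adjusted p = 1.37e-27), also in 39 pools. The other main neuronal convertase, *Pcsk2*, fell by 0.29 (adjusted p = 1.24e-11) in 39 of 39 pools from a high level of 9.03.

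Among 10 genes of the dense-core vesicle, 5 rose, 2 fell and 3 did not pass (median 0.071). These counts, and those of the next list, stand beside 33.0% of all genes that rose and 35.4% that fell. *Vgf*, a granin-like precursor of several peptides, rose from 7.75 to 8.64 log2 CPM (0.88 ± 0.035, adjusted p = 2.03e-37) in all 39 pools. *Scg2*, secretogranin II, rose from 7.72 to 8.37 (0.65 ± 0.038, adjusted p = 6.98e-27) in 38 pools. Of 23 other peptide precursors on the list 13 were listed, 6 rose, 2 fell and 5 did not pass (median 0.031). *Nts* (neurotensin) rose 2.01-fold from a very low level (-0.88 log2 CPM, adjusted p = 8.29e-05, 33 pools up), with a log2 difference of 1.01 that ran from 0.48 on the log2(CPM + 1) scale to 1.12 over 13 alternatives and passed in each. *Adm* (adrenomedullin) rose 1.43-fold (adjusted p = 9.83e-11, 37 pools), with a log2 difference of 0.51 that was 0.34 on the log2(CPM + 1) scale. *Nppc* (C-type natriuretic peptide) fell by 0.35 (adjusted p = 2.06e-08, 37 pools down), and *Trh*, near 1 CPM, fell by 0.37 (adjusted p = 0.0320), a call that was lost in 3 of 13 alternatives.

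Levels varied between pools, and the parental strains show how far 2 pools of one genotype differ. Over the 39 Ctr pools the standard deviation was smallest for *Sst* (0.14) and *Vip* (0.14) and largest for *Cort* (0.49), whose lowest and highest pool were 4.93-fold apart, followed by *Penk* (0.38), *Tac1* (0.31) and *Crh* (0.30). The standard deviation between the 2 pools of a parental strain and condition, over 4 such pairs, was 0.21 for *Cort*, 0.11 for *Npy* and 0.13 for *Sst*. The spread over the 39 pools exceeded it in 8 of 10 members, by 1.03 times (*Sst*) to 2.36 times (*Cort*). The same count was not made over all genes, so it shows no trait of this set. With 4 pairs the spread between repeat pools is a rough estimate, and a ratio near that of *Sst* is no clear difference. In *Penk* and *Tac1* it was the other way round, with 0.65 and 0.54 between repeat pools against 0.38 and 0.31 over all pools. The spread of every member lay above the 79th percentile of 500 genes of like level, with *Crh* lowest (79.4) and *Penk* highest (98.2).

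Whether a line that is high in Ctr is also high in SD was asked over the 33 BXD/RwwJ lines, with separate mice in the 2 pools. *Cort* kept its order best, with Pearson's r = 0.76 and Spearman's rho = 0.75 (adjusted permutation p = 1e-04 for both, resting on the smallest p that 100000 permutations can give), and r = 0.79 without the 2 lines farthest from the median. *Vip* followed with r = 0.62 and rho = 0.60 (adjusted permutation p = 8e-04 and 0.00155; r = 0.57 without 2 lines). *Npy* had r = 0.56 and rho = 0.58 (adjusted permutation p = 0.0027 and 0.0016; 0.57 without 2 lines). *Sst* had r = 0.53 and rho = 0.47 (adjusted permutation p = 0.00435 and 0.0157; 0.42 without 2 lines). The other 6 of the 10 relations did not pass by r. *Cck* (r = 0.32, adjusted permutation p = 0.120) passed by rho (0.41, adjusted permutation p = 0.0358) and reached r = 0.59 without the 2 farthest lines. *Adcyap1* had r = 0.32 and rho = 0.25 (adjusted permutation p = 0.120 and 0.197; r = 0.11 without 2 lines). *Pdyn* went from r = 0.069 (rho 0.30, adjusted permutation p = 0.705 and 0.134) to 0.43 without 2 lines. *Tac1* (r = 0.14, rho = 0.31), *Penk* (0.084 and 0.15) and *Crh* (0.082 and 0.050) had adjusted permutation p of 0.607, 0.705 and 0.705 for r, 0.127, 0.464 and 0.781 for rho, and r of 0.21, 0.16 and 0.18 without 2 lines.

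**Figure D3:**
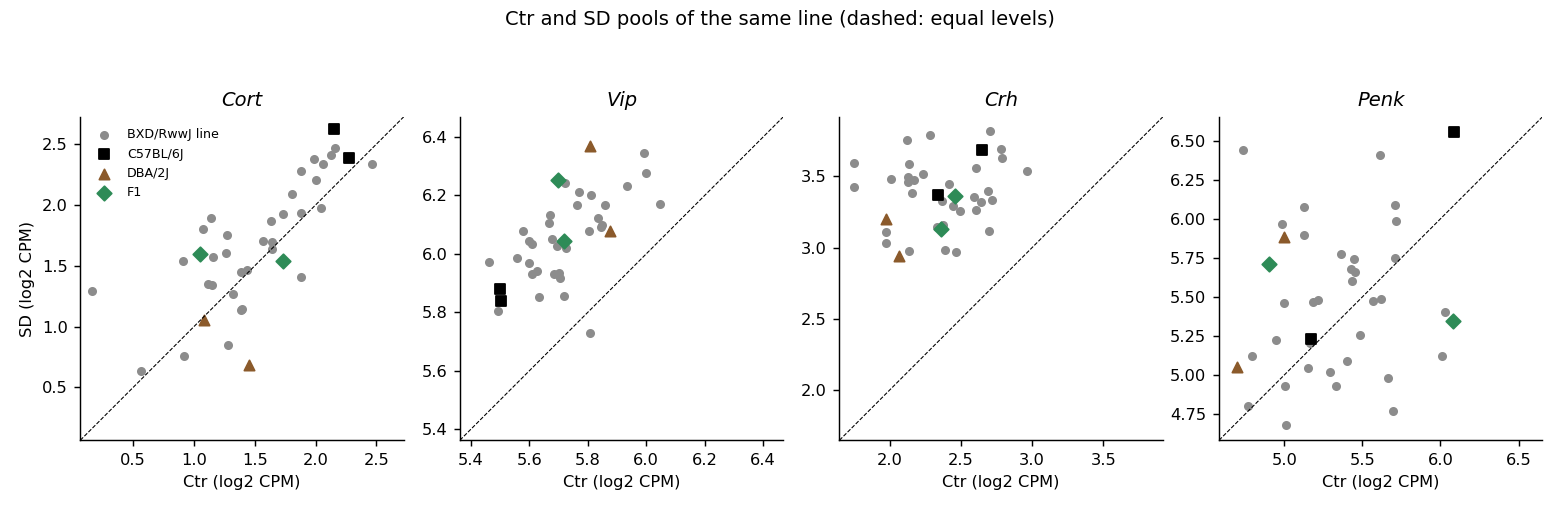
SD level against Ctr level (both log2 CPM, equal axes) of *Cort*, *Vip*, *Crh* and *Penk*, with BXD/RwwJ lines in grey, B6 as black squares, D2 as brown triangles, F1 hybrids as green diamonds, and a dashed line at equality. *Cort* and *Vip* lines follow a slope (r = 0.76 and 0.62 over 33 lines), *Crh* lies wholly above the dashed line, and *Penk* (r = 0.084) shows no order.

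B6 and D2 were compared over 8 pools, 4 of each strain, with the condition as a covariate. Of the 10 precursors 7 differed, 5 lower and 2 higher in D2, where limma called 25.5% of all genes, 13.9% lower and 11.6% higher in D2. *Cort* differed most. Its B6 pools held 2.27 and 2.15 log2 CPM in Ctr and 2.38 and 2.63 in SD, and its D2 pools 1.08 and 1.45 in Ctr and 1.06 and 0.68 in SD. The strains did not overlap, and D2 was lower by 1.29 ± 0.16 on the log2 scale (adjusted p = 2.87e-05), which is 2.44-fold. The 4 pools of each strain also stood apart for *Npy* and for no other member, and 17.3% of all genes had strains that did not overlap.

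*Vip* was higher in D2. B6 held 5.50 in both Ctr pools and 5.84 and 5.88 in SD, and D2 held 5.87 and 5.81 in Ctr and 6.08 and 6.37 in SD, so that each D2 pool exceeded both B6 pools of its condition. The difference, D2 minus B6, was 0.35 ± 0.055 (adjusted p = 2.20e-04). *Pdyn* was also higher in D2 (0.27 ± 0.061, adjusted p = 0.00391), with Ctr pools of 4.62 and 4.64 in B6 and 5.03 and 4.94 in D2. *Crh* (-0.46 ± 0.11, adjusted p = 0.00432), *Cck* (-0.30 ± 0.049, adjusted p = 3.62e-04), *Adcyap1* (-0.29 ± 0.069, adjusted p = 0.00681) and *Npy* (-0.21 ± 0.055, adjusted p = 0.0102) were lower in D2.

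Without the first B6 pools, *Npy* (adjusted p = 0.0747) and *Crh* (0.0766) no longer passed, and without the second D2 pools *Npy* (0.172) and *Adcyap1* (0.0547) did not, nor did *Pdyn* without the first D2 pools (0.0902). *Cort*, *Vip* and *Cck* passed under each alternative that was run. *Penk* (-0.60 ± 0.25, adjusted p = 0.0921), *Sst* (-0.15 ± 0.060, adjusted p = 0.0785) and *Tac1* (-0.12 ± 0.21, adjusted p = 0.718) did not pass. With the collection phase as a block *Penk* (adjusted p = 5.58e-04) and *Sst* (0.0181) passed. Both values moved with the B6 pools that were used. Without the second B6 pools *Penk* was at -1.16 (adjusted p = 1.47e-04) and *Sst* at -0.25 (0.00689), and without the first B6 pools *Penk* was at -0.043 (0.890) and *Sst* at -0.049 (0.560).

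**Figure D4:**
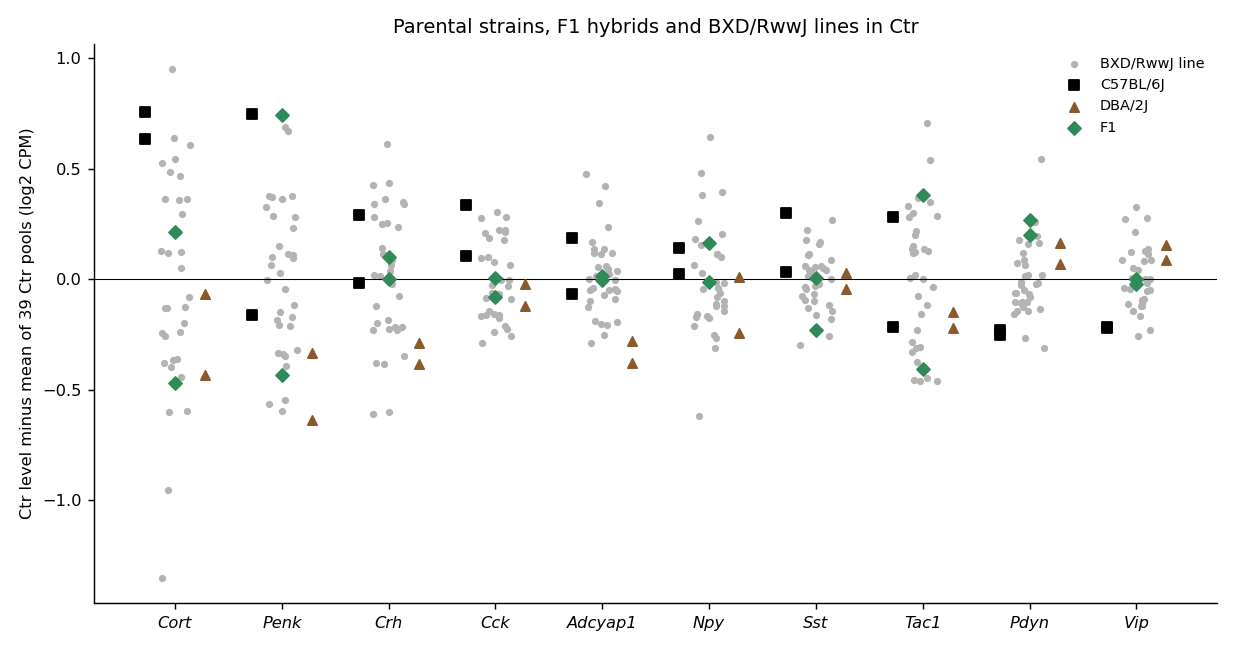
Ctr level of each precursor relative to its mean over 39 Ctr pools (log2 CPM), for B6 (black squares), D2 (brown triangles), both F1 hybrids (green diamonds) and the 33 BXD/RwwJ lines (grey). B6 sits above D2 for *Cort* (2.27 and 2.15 against 1.08 and 1.45 log2 CPM) and below it for *Vip* and *Pdyn*, and the 2 B6 pools of *Penk* lie far apart (6.08 and 5.17).

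The BXD/RwwJ lines were placed against the mean Ctr levels of the parents, as a description. For *Vip* 24 of 33 lines lay between them, 7 above both and 2 below, and for *Cort* 22 lay between, 1 above and 10 below. For *Tac1*, where the parents were close, 7 lines lay between them, 16 above and 10 below. The F1 hybrids held 5.70 and 5.72 log2 CPM of *Vip* in Ctr, between the parents, and 1.73 and 1.05 of *Cort*, which are farther apart from each other than the pools of either parent. Here 1.73 is the C57/BL/J x DBA/2J F1 pool and 1.05 that of the reverse cross, with 1 pool of each.

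The strains did not detectably differ in their response to SD. No member passed in the interaction fit by limma (1 had an unadjusted p under 0.05), where 0.00671% of all genes were called. *Crh* rose by 1.04 in B6 and 1.05 in D2 on average, with a 95% interval of -0.45 to 0.49 for the difference in response. For *Vip* the interval was -0.22 to 0.27. *Cort* was the member with an unadjusted p under 0.05. It changed by 0.11 and 0.47 in the B6 pairs and by -0.027 and -0.77 in the D2 pairs, an interaction of -0.69 ± 0.28 (adjusted p = 0.990).

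Pairs of members were compared over the 33 Ctr pools of the BXD/RwwJ lines, 45 pairs in all, of which 3 passed by r and 1 by rho. *Penk* and *Tac1* went together (r = 0.73, rho = 0.73, adjusted permutation p = 4.5e-04 for both, the smallest reachable over 45 pairs; r = 0.66 without the 2 farthest lines, and 0.72 in the SD pools). *Penk* and *Pdyn* had r = 0.52 and rho = 0.43 (adjusted permutation p = 0.0318 and 0.105), and in these pools r fell to 0.30 (adjusted permutation p = 0.392) without the 2 farthest lines, so that in Ctr the relation rests on them. In the SD pools the same pair had r = 0.60 and rho = 0.52 (adjusted permutation p = 0.00607 and 0.0421), and r = 0.46 without 2 lines. *Crh* and *Adcyap1* had r = 0.51 and rho = 0.44 (adjusted permutation p = 0.0318 and 0.105; r = 0.53 without 2 lines), and without BXD79, BXD85 and BXD101 the pair did not pass (r = 0.47, adjusted permutation p = 0.118). *Npy* and *Cort* did not pass in Ctr (r = 0.42, rho = 0.51, adjusted permutation p = 0.123 and 0.0630). This pair passed without the 2 farthest lines (r = 0.54, rho = 0.58, adjusted permutation p = 0.0299 and 0.0175). It also passed in the SD pools (r = 0.52, rho = 0.50, adjusted permutation p = 0.0340 and 0.0421).

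Markers of other tissue moved with part of the set. Of 13 names on a list of striatum markers 11 were listed (not *Drd1*, whose older name *Drd1a* was, or *Isl1*), and their mean ran from 1.79 to 4.07 log2 CPM over the Ctr pools and from 2.27 to 4.32 over the SD pools (summed 205 to 478 and 288 to 528 CPM). In the SD fit 3 of the 11 rose, 1 fell and 7 did not pass (median log2 difference 0.15), where 33.0% of all genes rose and 35.4% fell. The mean of the list was higher in SD in 23 of 39 pools. Over the 33 lines in Ctr, this mean was related to *Penk* (r = 0.82, rho = 0.86, adjusted permutation p = 2e-04 for both, r = 0.85 without the 2 farthest lines) and to *Tac1* (r = 0.59, rho = 0.68, adjusted permutation p = 0.0016 and 3e-04, r = 0.72 without 2 lines). For *Pdyn* r was 0.34 and rho 0.26 (adjusted permutation p = 0.213 and 0.425, r = 0.33 without 2 lines). No other of the 20 relations tested passed in Ctr.

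In the SD pools the same mean was related to *Penk* (r = 0.93, rho = 0.94, adjusted permutation p = 2e-04 for r), *Tac1* (r = 0.64, rho = 0.58, adjusted permutation p = 7e-04) and *Pdyn* (r = 0.54, rho = 0.49, adjusted permutation p = 0.0082). It was inversely related to *Adcyap1* (r = -0.49, rho = -0.47, adjusted permutation p = 0.0174). The change of a line in this mean, looked at after seeing the data, also went with its change in *Penk* (r = 0.89, rho = 0.89), *Tac1* (r = 0.76, rho = 0.67) and *Pdyn* (r = 0.56, rho = 0.60), with adjusted permutation p of 1e-04, 1e-04 and 0.0056 for r. The change in *Vip* was inversely related to it by rho (-0.49, adjusted permutation p = 0.0198) but not by r (-0.28, 0.218). Of the defining markers, the dopamine receptor *Drd1a* averaged 3.67 log2 CPM and the adenosine receptor *Adora2a* 2.16 in Ctr. The first B6 pool, with 6.08 log2 CPM of *Penk* in Ctr, had a marker mean of 3.84, and the second, with 5.17, had 2.41.

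With the marker mean as a covariate in the SD fit, chosen after seeing the data, the log2 difference of *Penk* went from 0.15 to 0.049 and its SE from 0.095 to 0.044 (adjusted p = 0.328), and *Tac1* went from 0.32 to 0.26 (adjusted p = 3.27e-05). *Crh* (1.02), *Adcyap1* (0.44), *Vip* (0.34), *Cck* (0.20) and *Pdyn* (0.15) kept their calls. In the parental fit the same covariate took *Penk* from -0.60 ± 0.25 to -0.30 ± 0.060 (adjusted p = 0.00136) and turned *Tac1* from -0.12 to 0.11 (adjusted p = 0.464). The part of dissected tissue in these values was not tested.

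**Figure D5:**
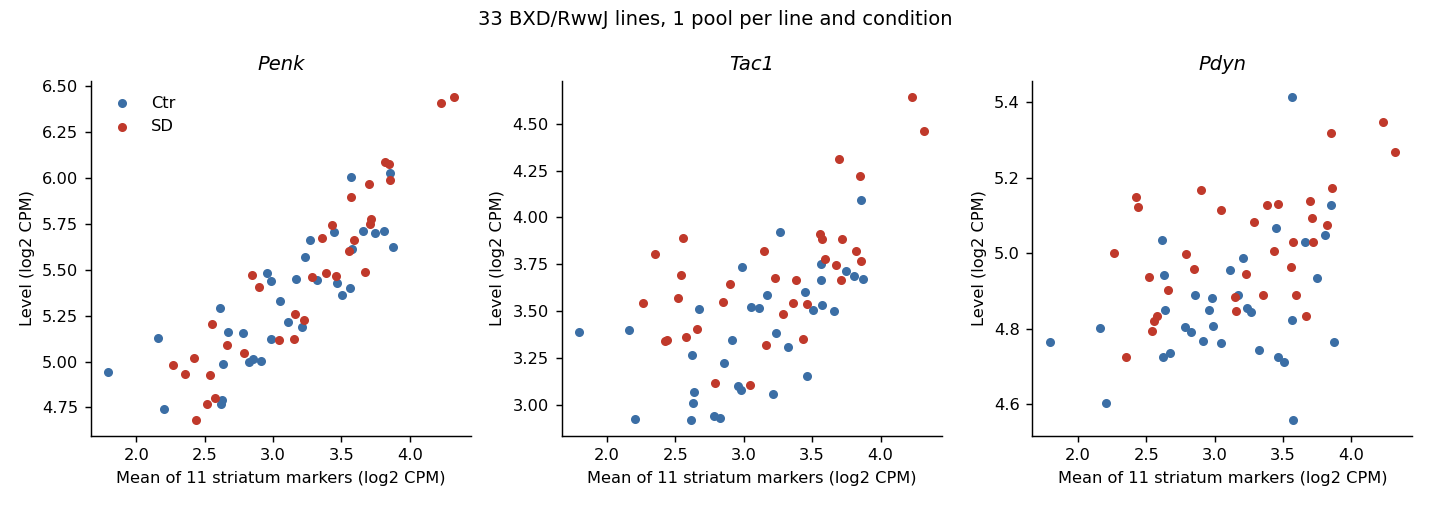
Levels of *Penk*, *Tac1* and *Pdyn* (log2 CPM) against the mean of 11 striatum markers (log2 CPM) in the Ctr (blue) and SD (red) pools of 33 BXD/RwwJ lines. *Penk* follows the markers in both conditions (r = 0.82 and 0.93), *Tac1* less tightly (0.59 and 0.64), and *Pdyn* least (0.34 and 0.54).

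The labelled tissue was checked against other lists. All 16 markers of GABAergic interneurons and all 10 of cortical glutamatergic neurons were listed, with list means of 4.51 to 4.88 and 7.21 to 7.40 log2 CPM over the Ctr pools. Of the interneuron markers 3 rose after SD, 6 fell and 7 did not pass (median -0.023). Beside this count and those of the other lists below, 33.0% of all genes tested rose and 35.4% fell. Of the GABA-synthesizing enzymes, *Gad1* differed by 0.013 (adjusted p = 0.659), whereas *Gad2* rose by 0.079 (adjusted p = 0.00407, up in 32 pools). In Ctr no precursor was related to the interneuron list past the threshold, with r from -0.34 (*Npy*) to 0.24 (*Pdyn*). Without the 2 farthest lines *Crh* passed, inversely (r = -0.53, rho = -0.48, adjusted permutation p = 0.0161 and 0.0417), and *Cort* passed by rho (-0.47, adjusted permutation p = 0.0417) but not by r (-0.41, 0.115). Over all 39 Ctr pools *Crh* and *Cort* passed by rho (-0.42 for both, adjusted permutation p = 0.0428 for both) but not by r. In the SD pools *Cort* was inversely related to the interneuron list by r (-0.45, adjusted permutation p = 0.0274) but not by rho (-0.42, 0.0585). Of the other lists, hippocampus (6 of 7 listed, none up and 2 down), thalamus (5 of 5, 2 up and 1 down), astrocytes (5 of 5, 2 up), oligodendrocytes (5 of 5, 1 up and 2 down), microglia (5 of 5, 1 up and 2 down) and endothelium (3 of 3, 2 up and 1 down) moved in part, and the listed markers of choroid plexus (4), olfactory bulb (2) and pituitary (1) did not pass. Those calls compare the conditions, whereas single pools differed widely. Summed choroid plexus markers ran from 7.71 to 238 CPM over the Ctr pools and from 6.77 to 410 over the SD pools. Summed olfactory bulb markers ran from 6.84 to 20.7 CPM in Ctr and from 6.28 to 70.7 in SD. The pituitary marker *Gh* ran from -4.51 to 5.87 log2 CPM in Ctr and from -4.52 to 2.43 in SD. Whether single pools held RNA of these tissues was not tested. None of 7 hypothalamus markers was listed, where genes with a low mean count had been left out. Whether these pools held RNA of the hypothalamus, where *Crh* and several other precursors abound, was not tested.

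By similarity of pattern over the 33 Ctr pools, given as a description, the 3 genes nearest to *Penk* were *Adora2a* (r = 0.81), *Rgs9* (0.78) and *Ppp1r1b* (0.77), 3 genes of the striatum list, with r of 0.92, 0.77 and 0.73 in the SD pools. Those nearest to *Tac1* were *Penk* (0.73), *Adora2a* (0.67) and *Drd1a* (0.65), with 0.72, 0.61 and 0.71 in SD. For *Crh* they were *B4galt3* (0.65), *Nfil3* (0.65) and *Cbln2* (0.63), with 0.27, 0.45 and 0.56 in SD, and for *Adcyap1* *Lingo3* (0.76) and *Nfil3* (0.75), with 0.45 and 0.58. *Nfil3*, a transcription repressor, is thus near both *Crh* and *Adcyap1*, and it rose by 1.00 log2 unit after SD (adjusted p = 7.51e-33).

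The abundant and interneuron members had other neighbours. *Npy* was nearest to *Lgals1* (0.80), *Pigyl* (0.78) and *Pafah1b3* (0.77), with 0.52, 0.24 and 0.42 in SD. *Cort* was nearest to *Bex1* (0.70), *Zkscan6* (0.67) and *Cxx1a* (0.64), with 0.54, 0.48 and 0.37. *Vip* was nearest to *Decr2* (0.66), *Zscan21* (0.66) and *Mir682* (0.64), with 0.17, 0.52 and 0.52 in SD. These points share the lines, and each r in Ctr was picked as among the highest over all listed genes.

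*Cck* was nearest to *Tmem121* (0.76), *Tsen54* (0.75) and *2310036O22Rik* (0.74), with 0.59, 0.40 and 0.54 in SD. *Sst* was nearest to *Cdpf1* (0.66), *C920006O11Rik* (0.59) and *Zfp408* (0.58), with 0.47, 0.59 and 0.019. *Pdyn* was nearest to *Necab2* (0.73), *Wnt2* (0.73) and *Ctnnb1* (0.72), with 0.58, -0.019 and 0.36.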

How the data were processed

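Cortex libraries of 39 Ctr and 39 SD pools were analysed. Those of 4 BXD/TyJ lines were described apart. Groups and lines came from the labels. The authors deposited log2 CPM. They aligned stranded single-end reads to mm9 with STAR and counted RefSeq genes by strand with HTSeq, left out genes with a low mean count, and normalized with edgeR (TMM), per the study's methods and the submitters' processing notes. Undoing the logarithm, with a prior count of 1.00 read on average, gave whole reads for 100% of the values within 0.02 of a read, which supplied depth, reads per pool and voom.

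SD and Ctr were compared with limma 3.58.1 in R 4.3.3 (lmFit, eBayes with a variance trend, two-sided) on the deposited log2 CPM of 14896 genes, without a block, and calls were made at a Benjamini-Hochberg adjusted p under 0.05. B6 and D2 were compared over 8 pools with the condition as a covariate, and their responses by an interaction term. SD and Ctr pools of the same line share their genotype, and their deviations from the group means correlated with r of at least 0.299 (median 0.614, against -0.020 for different lines). The collection phase of the parental pools was read from the number in their labels, which the study's methods explain (r of 0.021 to 0.23). Both served as blocks in alternatives. Correlations were tested over 33 lines with 100000 two-sided permutations in numpy 2.4.6, with Benjamini-Hochberg adjustment within each family of 10, 45 or 20. Like level means the 250 genes on either side by Ctr mean. The SD fit without a block was also run on simulated counts. Those counts held no differences between lines, unlike these data, so they cannot test how the pairing of pools bears on the calls.

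The members, and the gene and marker lists, were chosen with earlier results of these data known. Named are the 10 members, genes of the peptide lists that passed with an absolute log2 difference of at least 0.3, and for each member the 3 genes with the highest Pearson r in Ctr, of which 1 is not reported here. *Pcsk2*, *Gad1*, *Gad2*, *Sstr1*, *Sstr2*, *Sstr3* and the markers named as present or absent fall outside that rule and were picked after their values were seen. Exon lengths and mm9 positions are from GENCODE, promoter windows from RefSeq (GRCm38.p6).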

Additional observations from a re-analysis of the deposited data

How the results depend on the processing

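The calls of the 10 precursors in SD against Ctr held under each of 14 alternatives, except that of *Cort*. With the line as a replicate block (pairing the pools of a line) *Cort* passed at a log2 difference of 0.16 (adjusted p = 0.00943), at 0.18 with voom and the block (0.00173) and at 0.17 with the block and the striatum covariate (0.00714), and the block changed no other member's call. Quantile normalization turned *Sst* to -0.0050 and *Npy* to -0.010, neither of which was called. Receptors that rose went from 4 to 7 with the block, and other precursors that fell from 2 to 1 once genes averaging under 0 log2 CPM were left out. Between the parents, 7 members passed, 3 in the SD pools alone and 5 to 9 when a strain's pools of 1 phase were left out, where the remaining pools of that strain were assumed to vary like the others. The genes called went from 3804 to 2344 and 1798 in the Ctr and SD pools alone, in which fewer pools are compared, and to 2398 and 2527 without the first and second D2 pools. *Tac1* went from -0.12 to between -0.50 and 0.25 when one of these was left out, and to 0.11 with the striatum covariate, and was called in none. In the interaction fit 1 gene was called, 2 with the phase block and 0 without the second B6 or either D2 pool pair. Pairs of members past the threshold went from 3 to 1 without BXD79, BXD85 and BXD101, and relations with marker lists from 2 to 5 in the SD pools; the causes were not tested.

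Each line has 1 pool per condition, so values of single lines have no error estimate, and only the parental strains repeat a genotype. Pooling hid the differences between mice of a line. *Cort*, with 24 to 132 reads per pool, is the member that depth limits most.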
